A study of Mus musculus with 62 samples.

Results

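A set of 10 genes that mark the epithelium of the choroid plexus was followed through long-RNA sequencing of mouse hippocampus. They are Ttr, Enpp2, Kl, Folr1, Clic6, Kcne2, Aqp1, Slc4a5, Cldn2 and Otx2. They were picked by gene name, as known markers, with earlier results of these data known. Each name matched 1 of the 53975 gene identifiers in each long-RNA table. The series holds 62 libraries, and 31 of them are long RNA. The hippocampi of mice, both sides pooled for each animal, gave 17 of these, and HT-22, an established neuronal line derived from mouse hippocampus, gave 14. Mice with the mutated App allele NL-G-F, a model of amyloid pathology, are called APP, and C57BL/6J controls are called WT. They were 3, 6 or 12 months old, ages that the series places before detectable plaques, at the onset of plaques and symptoms, and at the end stage. Every group had 3 mice except WT at 3 months, which had 2. HT-22 cells received an anti-Hsf1 locked nucleic acid (LNA) at 150 nM or a scramble LNA, given in the labels as 50 uM, for 24 h. Amyloid beta peptide 1-42 (Aβ42) or its reverse sequence was then added at 30 uM, with 4 libraries per peptide under scramble and 3 per peptide under anti-Hsf1.

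The choroid plexus is a folded, vascular tissue in the brain ventricles. Its epithelium secretes cerebrospinal fluid by moving ions and water from blood to ventricle, seals off the blood with tight junctions, and releases carrier proteins and enzymes into the fluid. The lateral ventricle, with its plexus, lies against the hippocampus, and neurons, astrocytes and microglia express most of these genes weakly or not at all.

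Levels are given as TPM, a measure per transcript length with a fixed total in each library, after scaling each library so that the median gene had the same level in every mouse library. The scaling factors ran from 0.686 to 1.455, with WT 6-month libraries at 0.686 to 0.8396 and APP 6-month libraries at 1.1341 to 1.4552. Relative depth, as coverage per FPKM, ran from 1.42 to 3.04. The 8 neuronal markers looked at, among them Slc17a7 and Prox1, had a summed level of 1333 to 2460, lowest in APP 3-month replicate 1. Some APP libraries stood apart on markers of other regions. In APP 3-month replicate 1, 6 thalamus markers summed to 385 and 7 striatum markers to 264, against medians of 36.0 and 52.4 over the 17 libraries. In APP 3-month replicate 2 the sums were 122.8 and 90.2, and in APP 6-month replicate 1 the thalamus sum was 129. Xist was at 71.2 to 138 in the APP libraries and in both WT libraries of 3 months, and at 0.266 to 0.522 in the WT libraries of 6 and 12 months, where Ddx3y was at 18.6 to 28.3. The labels give no sex. At 6 and 12 months genotype and this difference in sex-linked genes cannot be told apart, nor can age and this difference in WT mice.

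Among the secreted products, Ttr was the most abundant. It encodes transthyretin, the carrier of thyroxine and of retinol-binding protein in blood and cerebrospinal fluid (ENSMUSG00000061808, GRCm38 chromosome 18, 20665250 to 20674324, plus strand). In WT mice its scaled TPM was 1373 and 953 at 3 months, 1079, 1256 and 1239 at 6 months, and 396, 1242 and 938 at 12 months. In APP mice it was 2292, 576 and 544 at 3 months, 850, 27.0 and 527 at 6 months, and 1562, 1559 and 1340 at 12 months. The lowest and highest library were both APP, and they differed 84.9-fold, while the 3 oldest APP mice lay close together. In these bulk samples fewer plexus cells and less RNA per plexus cell cannot be told apart. By mean, the order was APP at 12 months (1487 ± 127, SD, n = 3), WT at 6 months (1191 ± 97.8, n = 3), WT at 3 months (1163 ± 297, n = 2), APP at 3 months (1137 ± 999.8, n = 3), WT at 12 months (859 ± 428, n = 3) and APP at 6 months (468 ± 415, n = 3). Of the neighbours in that order, only APP at 12 months and WT at 6 months had ranges that did not overlap. Among protein-coding genes, Ttr ranked between 12 and 44 by TPM in 16 libraries, and 2721 in APP 6-month replicate 2.

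Enpp2 encodes autotaxin, a secreted enzyme that makes lysophosphatidic acid, and was second in level (ENSMUSG00000022425, chromosome 15, 54838901 to 54952892, minus strand). Its scaled TPM in WT mice was 516 and 319 at 3 months, 295, 400 and 401 at 6 months, and 178, 371 and 299.8 at 12 months. In APP mice it was 772, 265 and 260 at 3 months, 288, 71.0 and 247 at 6 months, and 423, 471 and 451 at 12 months. The same APP libraries were lowest and highest as for Ttr, but the drop was shallower. APP 6-month replicate 2 held 22.3% of the median library's Enpp2 and 2.50% of its Ttr. The ratio of Ttr to Enpp2 was 0.380 in that library and between 2.0966 and 3.69 in the other 16. Enpp2 is also expressed by oligodendrocytes, whose 8 markers were at 91.1% of their median there.

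**Figure D1:**
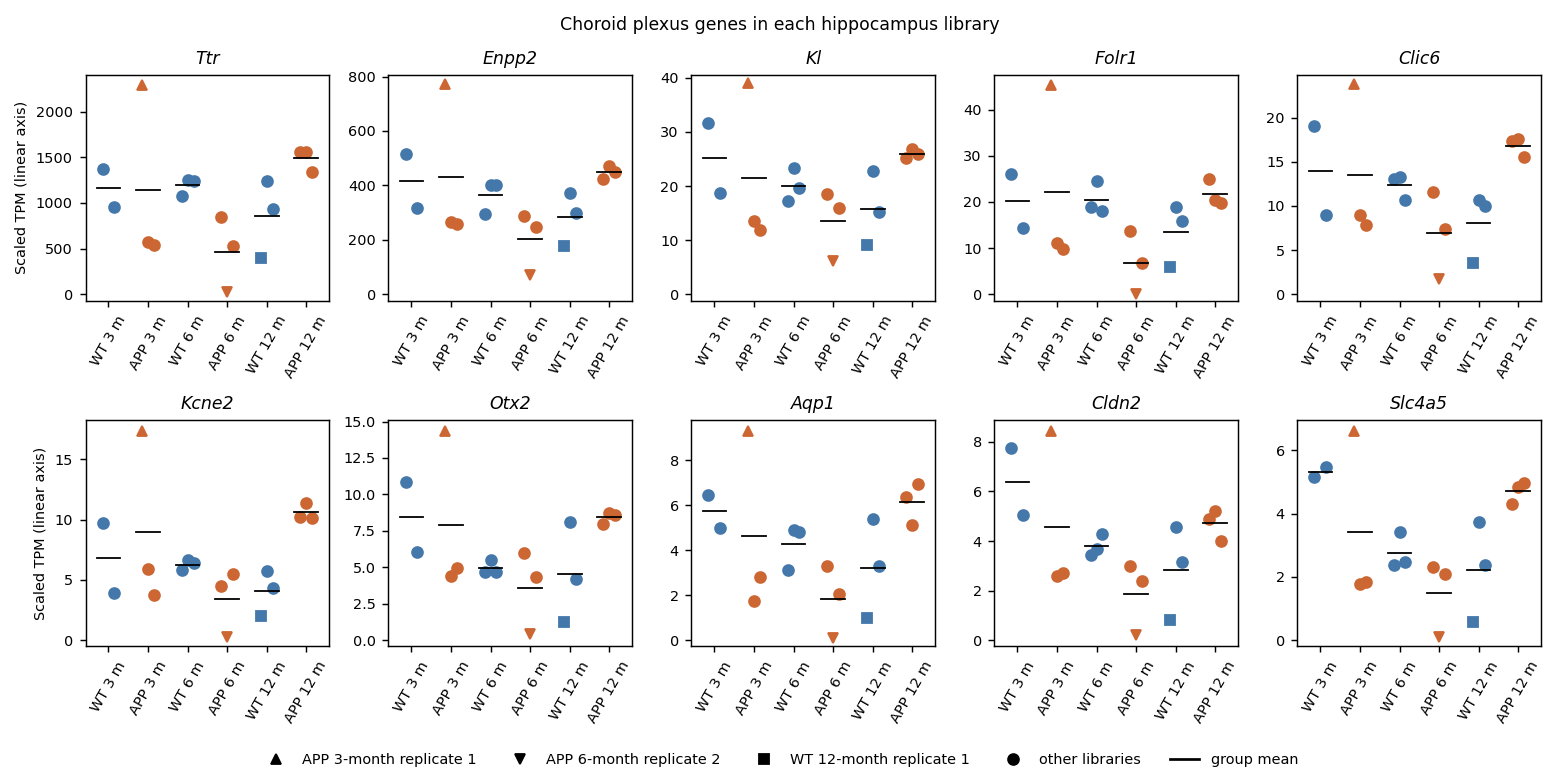
Scaled TPM (linear axes) of the 10 genes in each of 17 hippocampus libraries, 1 panel per gene, with 1 point per mouse and a line at each group mean. The upward triangle, APP 3-month replicate 1, is the top point in every panel, the downward triangle, APP 6-month replicate 2, is the bottom point, and the square, WT 12-month replicate 1, is the next lowest.

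Of the receptors, Kl encodes Klotho, a membrane protein that serves as a co-receptor for Fgf23 and is shed into the fluid (ENSMUSG00000058488, chromosome 5, 150952607 to 150993817, plus strand). Its scaled TPM in WT mice was 31.6 and 18.8 at 3 months, 17.2, 23.4 and 19.6 at 6 months, and 9.06, 22.9 and 15.3 at 12 months. In APP mice it was 39.0, 13.6 and 11.8 at 3 months, 18.5, 6.07 and 15.9 at 6 months, and 25.1, 26.9 and 25.9 at 12 months. Kl had the smallest spread of the set, and its lowest library kept 32.3% of the median. Folr1 encodes folate receptor alpha, which carries folate across the plexus (ENSMUSG00000001827, chromosome 7, 101858331 to 101870788, minus strand). Its scaled TPM in WT mice was 26.0 and 14.3 at 3 months, 18.9, 24.6 and 18.1 at 6 months, and 5.91, 18.9 and 15.9 at 12 months. In APP mice it was 45.3, 11.1 and 9.91 at 3 months, 13.7 and 6.75 at 6 months with the third library listed at 0, and 24.9, 20.5 and 19.8 at 12 months. The library listed at 0 was again APP 6-month replicate 2, where Ttr kept a read depth of 30.6 per base.

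The ion, water and junction genes were lower in level and followed the same libraries. Clic6, of the chloride intracellular channel family, had a median scaled TPM of 10.7 (ENSMUSG00000022949, chromosome 16, 92485736 to 92541243, plus strand). Its groups ran from 8.98 to 19.0 in WT at 3 months, 10.7 to 13.3 at 6 months and 3.50 to 10.7 at 12 months, and in APP from 7.79 to 23.8, 1.77 to 11.6 and 15.5 to 17.6. Kcne2 encodes a regulatory subunit of apical potassium channels and lies on the same chromosome (ENSMUSG00000039672, 92292389 to 92298129, plus strand). Its scaled TPM in WT mice was 9.69 and 3.94 at 3 months, 5.78, 6.61 and 6.40 at 6 months, and 2.04, 5.76 and 4.36 at 12 months. In APP mice Kcne2 was at 17.4, 5.87 and 3.78 at 3 months, 4.48, 0.289 and 5.52 at 6 months, and 10.2, 11.4 and 10.2 at 12 months. For both genes, every APP mouse of 12 months lay above every WT mouse of 12 months, as for 8.81% of all genes tested.

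Aqp1 encodes the water channel aquaporin-1 (ENSMUSG00000004655, chromosome 6, 55336432 to 55348555, plus strand). It had the largest proportional drop among members that were not listed at 0: 1.96% of the median, at 0.0943, in APP 6-month replicate 2, against 9.32 in APP 3-month replicate 1. Slc4a5 encodes a sodium bicarbonate cotransporter (ENSMUSG00000068323, chromosome 6, 83219828 to 83304945, plus strand) and Cldn2 the pore-forming tight junction protein claudin-2 (ENSMUSG00000047230, chromosome X, 139800828 to 139811386, plus strand). Slc4a5 was at 5.16 and 5.47 in WT at 3 months, 2.39 to 3.43 at 6 months and 0.564 to 3.73 at 12 months. Cldn2 was at 7.74 and 5.06 in WT at 3 months, 3.43 to 4.27 at 6 months and 0.832 to 4.55 at 12 months. In APP mice the 2 genes lay between 0.0957 and 6.62 and between 0.201 and 8.46. The lowest of these values rest on very few reads, since the mean read depth over the gene in APP 6-month replicate 2 was 0.107 for Aqp1, 0.0598 for Slc4a5 and 0.079 for Cldn2. There it was also below 1 for Clic6 (0.149), Kcne2 (0.209) and Otx2 (0.247). In WT 12-month replicate 1 it was below 1 for Cldn2 (0.3135), Slc4a5 (0.3377), Clic6 (0.4411) and Otx2 (0.4992).

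The set holds 1 transcription factor, Otx2, a homeodomain protein needed to form and maintain the plexus (ENSMUSG00000021848, chromosome 14, 48657677 to 48673819, minus strand). Its scaled TPM in WT mice was 10.9 and 6.03 at 3 months, 4.64, 5.51 and 4.66 at 6 months, and 1.22, 8.14 and 4.22 at 12 months. In APP mice it was 14.4, 4.42 and 4.93 at 3 months, 5.98, 0.397 and 4.33 at 6 months, and 8.0, 8.71 and 8.60 at 12 months. Its lowest and highest libraries were those of the other 9 genes. Ttr, Folr1, Clic6, Enpp2 and Otx2 overlap other annotated genes, and the strand setting of the counting is not stated in the labels, so reads in the overlaps may be shared.

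Since the 10 genes varied together between libraries, the 250 bases before their RefSeq start sites (GRCm38.p6) were searched for the core TAATCC, bound by Otx2 and related factors, and the forkhead core GTAAACA, on both strands. The table matched Kl, Aqp1, Kcne2, Otx2, Slc4a5 and Cldn2, with 10 windows in all, and did not match Ttr, Enpp2, Folr1 and Clic6. Otx2 and Kcne2 had more than 1 window each, some of those of Otx2 overlapping, so the windows are not separate genes. TAATCC or its reverse complement GGATTA was present in 1 of 10 windows, against 6.25% of 32851 windows of all genes, and GTAAACA or TGTTTAC in 0 of 10, against 3.17%. The window that holds it belongs to Otx2 itself, at an internal start on the minus strand (chr14:48665110-48665359), 211 bases before the start, and is shown with the match in capitals. Beside it stand the windows of Aqp1 (chr6:55336049-55336298, plus strand), a member with a high level in HT-22 cells, and of Cldn2 (chrX:139800558-139800807, plus strand), a member close to 0 there. Neither has a match.
Otx2: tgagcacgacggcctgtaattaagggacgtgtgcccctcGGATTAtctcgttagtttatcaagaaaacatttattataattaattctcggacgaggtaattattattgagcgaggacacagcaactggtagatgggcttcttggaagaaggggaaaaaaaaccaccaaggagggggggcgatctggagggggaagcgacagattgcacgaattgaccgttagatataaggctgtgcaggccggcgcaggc
Aqp1: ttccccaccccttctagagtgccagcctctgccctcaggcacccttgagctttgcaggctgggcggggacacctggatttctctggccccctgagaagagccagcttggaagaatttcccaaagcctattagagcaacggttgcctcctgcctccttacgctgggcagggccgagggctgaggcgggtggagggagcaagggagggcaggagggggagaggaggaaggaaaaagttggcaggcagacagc
Cldn2: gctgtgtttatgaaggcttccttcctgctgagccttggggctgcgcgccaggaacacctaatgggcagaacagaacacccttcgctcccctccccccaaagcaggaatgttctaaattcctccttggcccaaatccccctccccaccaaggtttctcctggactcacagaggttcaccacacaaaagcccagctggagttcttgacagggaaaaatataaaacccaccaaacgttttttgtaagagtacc

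The members varied together from mouse to mouse. APP 6-month replicate 2 was the lowest library for 10 of 10 genes, APP 3-month replicate 1 the highest for 10 of 10, and WT 12-month replicate 1 the second lowest for 10 of 10. The same counts were found on TPM as deposited. The median member was at 5.23% of its median library in the first, 236% in the second and 32.7% in the third. Over the 45 pairs of members, Pearson's r of log2(scaled TPM + 1) across the 17 libraries was between 0.869 and 0.985, with a median of 0.941, and Spearman's rho was between 0.703 and 0.973. The points share library, depth and scaling. Within groups, after subtracting each group mean, r was between 0.871 and 0.982. Without APP 3-month replicate 1 and APP 6-month replicate 2 it was between 0.749 and 0.957. The members' mean had a Pearson's r of 0.24 with relative depth and of -0.14 with the scaling factor. Since the members varied together, the counts of members given below are not counts of independent genes.

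The genes differed in how low they stood where Ttr was low. A straight line of each gene on Ttr over the 17 libraries, extended to a Ttr of 0, left 25.6% of the median library's level for Kl, 20.7% for Enpp2 and 14.3% for Clic6. For the other genes the line ended between -9.21% (Kcne2) and 6.99% (Cldn2) of the median. Without the 2 libraries farthest from the median of Ttr, the values were 25.2% for Kl, 33.9% for Enpp2 and 12.6% for Clic6, but Otx2 moved from 4.69% to 16.4% and Cldn2 to 12.7%. Kl and Enpp2 thus had the highest values on the extended lines in both sets of libraries. No error was computed for these values. Without the 2 libraries the lowest Ttr was 396, so a Ttr of 0 lies beyond those data. Ttr made up 25.2% of the members' summed TPM in APP 6-month replicate 2 and 64.1% to 74.9% elsewhere.

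**Figure D2:**
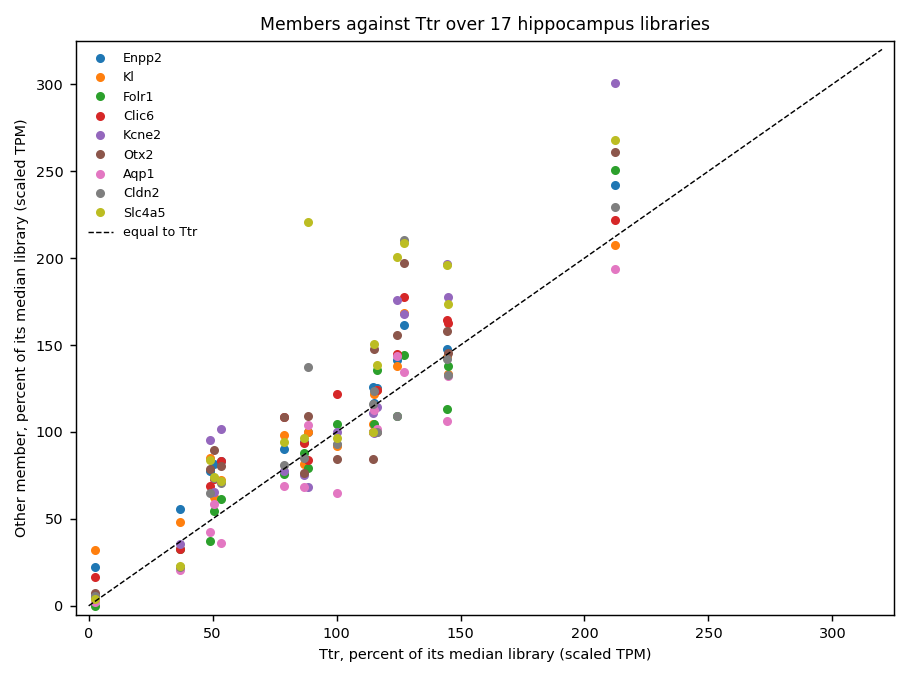
Level of the other 9 genes against Ttr in the 17 hippocampus libraries, both as a percent of the gene's own median library (scaled TPM, linear axes), with 1 colour per gene and a dashed line of equality. At the lowest Ttr, 2.50% of the median, Kl stands at 32.3% and Enpp2 at 22.3%, and at the highest, 212%, Kcne2 stands at 301%.

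Genes outside the set were ranked by Pearson's r with the members' mean log2(scaled TPM + 1) over the 17 libraries. The 10 nearest of 17830 tested were F5 (0.987), Ace (0.969), 1500015O10Rik (0.968), Mfrp (0.961), Sostdc1 (0.961), Tmem72 (0.941), Kcnj13 (0.937), 2900040C04Rik (0.933), Drc7 (0.932) and Col8a1 (0.931). F5 encodes coagulation factor V, Ace the angiotensin-converting enzyme, Kcnj13 a potassium channel and Sostdc1 a secreted antagonist of BMP and Wnt signals. In APP 6-month replicate 2 and APP 3-month replicate 1, F5 was at 0.323 and 8.37, and Ace at 2.19 and 17.4. Of these 10, 7 were on a list of 42 further choroid plexus genes, of which 36 had a mean TPM of at least 1. On that list r was above 0.8 for 23 of 36 genes, against 0.275% of genes outside the set. APP 6-month replicate 2 was the lowest library for 28 of the 36, against 9.71% of genes outside the set, and APP 3-month replicate 1 the highest for 21, against 13.0%. For genes outside the set, r was not taken again without these 2 libraries. The list was chosen with earlier results of these data known, so the counts on it are not an independent check.

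The 6 most abundant genes of that list varied less. Atp1b1, a subunit of the sodium pump, had a mean of 639 and an r of 0.450, and the bicarbonate transporter Slc4a10 a mean of 102 and an r of 0.119. Slc12a2, a sodium, potassium and chloride cotransporter, had a mean of 29.8 and an r of 0.620. The growth factor binding protein Igfbp2 (27.8), Cab39l (25.7) and the anion exchanger Slc4a2 (20.6) had r of 0.908, 0.866 and 0.801. Atp1b1 and Slc4a10 are also expressed by neurons, and in APP 6-month replicate 2 they stood at 526 and 93.8, against medians of 632 and 98.6. For Atp1b1 that was the lowest of the 17 libraries.

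Markers of other cells followed the members less closely. In APP 6-month replicate 2 the members' summed level was 7.41% of the median library. The sums there were 50.2% for 10 markers of ependyma, the ciliated lining of the ventricles, 51.3% for 5 of blood, 93.7% for 8 of endothelium and 148% for 12 of the leptomeninges. Ptgds alone gave 624 of the leptomeninges sum of 709 there, so that sum mostly follows Ptgds. Hippocampal neurons were at 100% there. In APP 3-month replicate 1 the members were at 224%, ependyma at 178%, oligodendrocytes at 239%, striatum at 503%, thalamus at 1072% and hippocampal neurons at 61.5%. In WT 12-month replicate 1 the members were at 41.5%, ependyma at 73.1% and every other list but blood (127%) and the pituitary (414%) between 67.9% and 107%. Over the 17 libraries the ependyma markers' mean log2 level had an r of 0.71 with that of the members, the leptomeninges 0.06, the oligodendrocytes 0.38 and the hippocampal neurons -0.32. None of the listed markers that the tables hold was at 0 in every mouse library. The part of these cells in the members' levels was not tested.

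**Figure D3:**
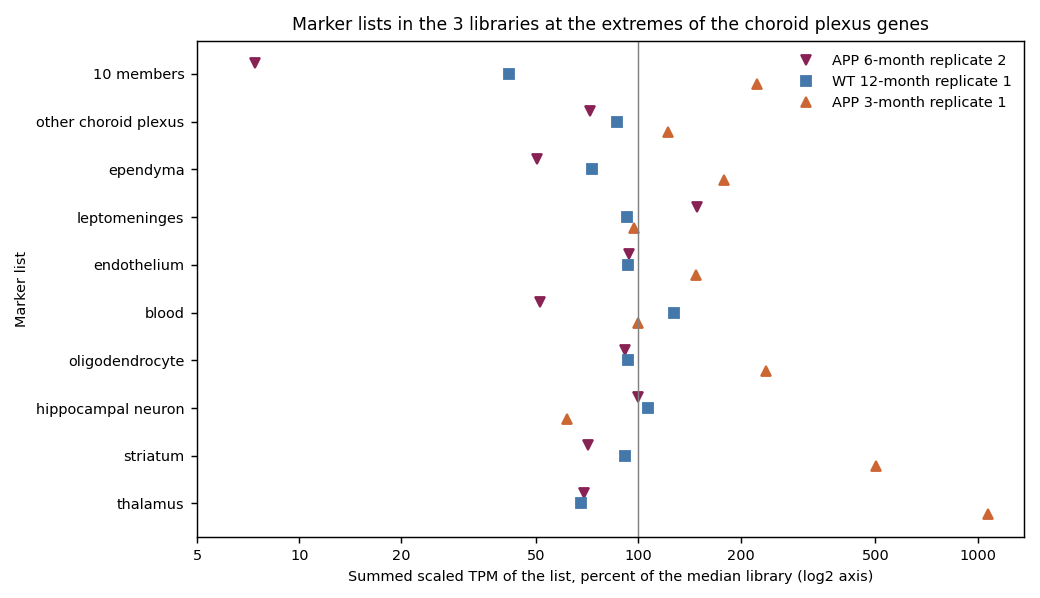
Summed scaled TPM of 10 marker lists in 3 libraries, each as a percent of that list's median over 17 hippocampus libraries (log2 axis), with a line at 100. In APP 6-month replicate 2 the 10 members stand at 7.41% and the other lists between 50.2% and 148%, and in APP 3-month replicate 1 the thalamus list stands at 1072%.

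At 6 months, when plaques appear, all 10 genes had a lower mean in APP than in WT mice, but none passed the test. With limma on log2(scaled TPM + 1), 0 of 10 were called at an adjusted p below 0.05, against 1.43% of 17840 genes. At an unadjusted p below 0.05 there were 3 of 10, against 16.9% of all genes. The log2 changes were between -2.36 and -0.66, with a median of -1.01, and the median of all genes was -5.3e-05. Ttr changed by -2.36 (SE 0.98, 95% interval -4.46 to -0.25, limma adjusted p = 0.244) and Folr1 by -2.14 (SE 0.81, limma adjusted p = 0.199). Ttr, Folr1, Enpp2, Kcne2, Slc4a5 and Cldn2 were lower in 3 of 3 APP mice than in any WT mouse, which makes 6 of 10, where 10.1% of all genes did so. On TPM as deposited 0 of 10 did so (0.538% of all genes), and Kl turned to 0.02. The deposited values moved the median of all genes to 0.60 and that of the members to -0.38. Without APP 6-month replicate 2, the change of Ttr was -0.83, that of Folr1 -0.997, that of Clic6 -0.37 and that of Kcne2 -0.28, and Otx2 turned to 0.04. At this age blood markers summed to 89.5 to 138 in APP and 175 to 228 in WT libraries, and 4 pituitary markers to 3.40 to 103 and 0.518 to 0.916. Thalamus markers were raised in APP 6-month replicate 1, at 129. Their part in the result was not tested.

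At 12 months, the end stage, the direction was the opposite. The mean of each of the 10 genes was higher in APP mice, with log2 changes between 0.71 and 1.27 and a median of 0.92, against -0.000265 for all genes. None was called by limma, against 0.454% of all genes. At an unadjusted p below 0.05 there were 2 of 10, against 6.98% of all genes. Kcne2 changed by 1.27 (SE 0.55, limma adjusted p = 0.650), Clic6 by 1.09 (SE 0.51, limma adjusted p = 0.714) and Ttr by 0.94 (SE 0.98, 95% interval -1.17 to 3.05, limma adjusted p = 0.966). Ttr, Kl, Folr1, Clic6, Enpp2, Kcne2 and Slc4a5 were higher in 3 of 3 APP mice than in any WT mouse, or 7 of 10, where 8.81% of all genes were. On TPM as deposited 10 of 10 were (13.2% of all genes). Without WT 12-month replicate 1 the changes were smaller, at 0.46 for Ttr, 0.65 for Clic6, 0.94 for Kcne2 and 0.30 for Folr1. Of the other lists, endothelium summed to 46.9 to 51.8 in APP and 30.4 to 41.6 in WT libraries, and oligodendrocytes to 1154 to 1290 and 1023 to 1052. Ependyma, at 30.6 to 40.7 and 22.6 to 31.9, overlapped. Their part in the result was not tested.

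**Figure D4:**
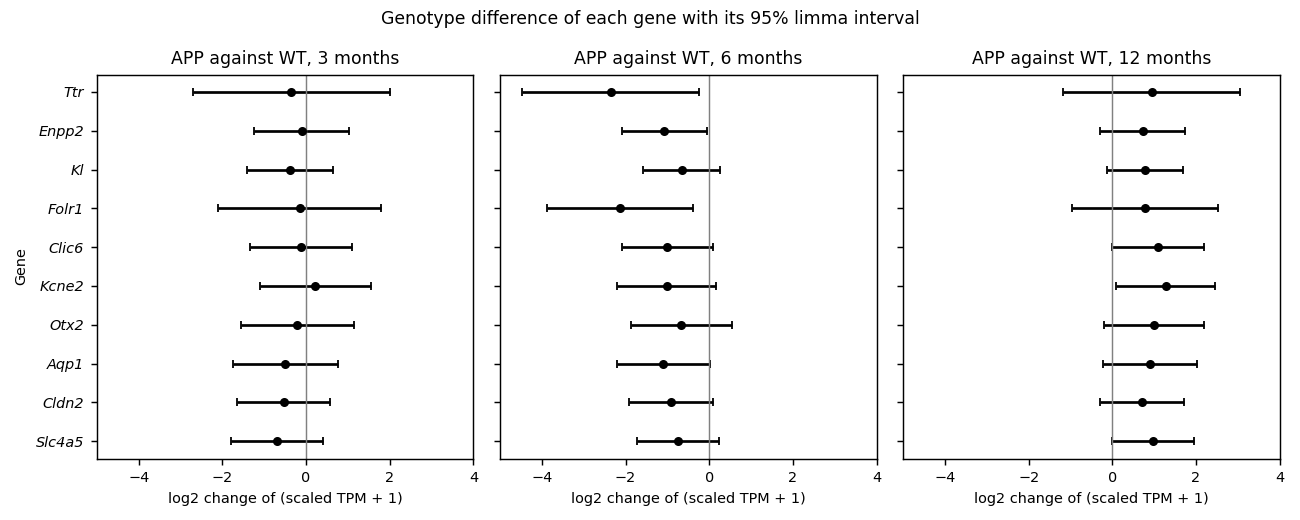
Difference between APP and WT mice in log2(scaled TPM + 1) for each gene at 3, 6 and 12 months, as points with 95% limma intervals. The points lie near or below 0 at 3 months, between -2.36 and -0.66 at 6 months and between 0.71 and 1.27 at 12 months, with wide intervals throughout.

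At 3 months, before plaques, the genotypes overlapped for all 10 genes, where 14.1% of all genes were higher and 13.0% lower without overlap. The log2 changes were between -0.69 (Slc4a5) and 0.22 (Kcne2), limma called 0 of 10 against 0.297% of all genes, and 0 had an unadjusted p below 0.05, against 13.3%. Without APP 3-month replicate 1, the library with the highest thalamus and striatum sums, the change of Ttr was -1.03, that of Enpp2 -0.62 and that of Kcne2 -0.34, and none was called. Averaged over the ages, 0 of 10 were called (0.219% of all genes), 0 had an unadjusted p below 0.05 (12.2% of all genes), and the changes lay between -0.59 (Ttr) and 0.16 (Kcne2). The F test of whether the genotype difference varied with age called 0 of 10, against 0.448% of all genes. At an unadjusted p below 0.05 there were 4 of 10, against 15.8% of all genes. The smallest limma adjusted p was 0.271, for Slc4a5. Xist was high in both genotypes at 3 months, but only in APP libraries at 6 and 12 months. In the average over ages and in the F test, genotype and age effects cannot be told apart from this difference. A contrast chosen after seeing the data, the genotype difference at 12 months minus that at 6 months, also called 0 of 10 (0.0224% of all genes). Its values ran from 1.43 for Kl to 3.29 for Ttr. Of the 10 genes, 9 had an unadjusted p below 0.05, against 10.1% of all genes, and the smallest limma adjusted p was 0.330. The 10 genes varied together over the same libraries, so these are not independent results.

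With age in WT mice, all 10 genes had a lower mean at 12 than at 3 months, with a median log2 change of -0.73. Limma called 0 of 10 against 0.0617% of all genes, and Slc4a5 was the 1 member with an unadjusted p below 0.05 (-1.11, SE 0.51, limma adjusted p = 0.594), against 8.34% of all genes. Slc4a5 and Cldn2 were lower in 3 of 3 mice of 12 months than in both of 3 months, where 14.6% of all genes were. Without WT 12-month replicate 1 the change of Ttr was -0.084, against -0.56 with it, and that of Folr1 -0.15, against -0.62. Without WT 3-month replicate 1 that of Kcne2 was -0.043, against -0.60. Both WT libraries of 3 months had Xist and all 3 of 12 months had Ddx3y in its place, so age and this difference cannot be told apart. In APP mice the 10 means on the log2 scale were higher at 12 months, with a median change of 0.46. Limma called 0 of 10 against 3.34% of all genes, and 0 had an unadjusted p below 0.05, against 16.5%. Without APP 3-month replicate 1 that change was 1.40 for Ttr and 0.98 for Kl, against 0.73 and 0.46 with it, and none was called. These age contrasts share mice with the genotype contrasts and are not independent of them.

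The 36 further choroid plexus genes lay nearer 0, with medians of the same sign at 6 and 12 months. These genes, too, were listed with earlier results of these data known. Their median log2 change was -0.05 at 3 months, -0.59 at 6 months, with 3 of 36 positive, and 0.60 at 12 months, with 34 of 36 positive. Limma called 0 of 36 in each genotype contrast, against 0.219% to 1.43% of all genes. At an unadjusted p below 0.05 there were 3, 7 and 10 at 3, 6 and 12 months. The shares of all genes were 13.3%, 16.9% and 6.98%. At 12 months 21 of 36 were higher without overlap, against 8.81% of all genes. At 6 months 12 of 36 were lower without overlap, against 10.1%, and 1 was higher, against 11.0%. At 3 months 3 were lower, against 13.0%, and 1 was higher, against 14.1%. In WT mice 10 were lower without overlap at 12 than at 3 months, against 14.6%, and the change was positive for 3 of 36. Between 3 and 12 months limma called 1 of 36 in APP mice, against 3.34% of all genes. It called 0 in WT mice, against 0.0617%. The called gene was Stra6, the cellular receptor for retinol-binding protein. It rose in APP mice from a mean of 2.08 at 3 months to 7.32 at 12 months (log2 change 1.43, SE 0.23, limma adjusted p = 0.0043). Its r with the members' mean was 0.260, and in the library with the lowest member levels it stood at 4.06.

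In HT-22 cells, which hold no plexus, 5 genes (Ttr, Kl, Clic6, Kcne2 and Otx2) were listed at 0 in all 14 libraries. Folr1 was listed at 0 in 12 libraries and reached 0.406 TPM, Enpp2 in 13 with a highest value of 0.116, and Cldn2 in 13 with a highest value of 0.204. Slc4a5 was at 0.0625 to 1.12 TPM. Aqp1 was the exception. Under scramble LNA it was at 64.0, 66.2, 134 and 112 TPM with Aβ42 and at 47.3, 36.3, 63.5 and 105 TPM with the reverse peptide. Under anti-Hsf1 LNA it was at 37.7, 34.9 and 30.6 TPM with Aβ42 and at 49.9, 42.9 and 47.0 TPM with the reverse peptide. All 14 values lay above the highest hippocampal value of Aqp1 on the same deposited scale, 9.79 TPM. No test was run between the HT-22 groups, and these values are unscaled.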

How the data were processed

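Long RNA was fragmented, depleted of ribosomal RNA and made into libraries, per the labels' protocols. Each long-RNA library has 1 deposited table. Per the file headers, the authors gave TPM, FPKM and Coverage per gene. TPM summed to nearly the same total in each deposited table. The deposited FPKM and the deposited coverage signal (mean read depth) were used only for relative depth, as the commonest ratio of Coverage to FPKM, and for the depth behind low values. The submitters' processing notes name cutadapt 1.18, BWA 0.7.17, HISAT2 2.1.0, bedtools 2.26.0 and StringTie 1.3.4d, and the builds mm10 and GRCm38, with no role or order. Reads per gene are unknown, so no count model was run.

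TPM was summed per gene identifier and scaled by the median of ratios over 20713 genes above 0 in all 17 mouse libraries. One fit of limma 3.58.1 (R 4.3.3) used log2(scaled TPM + 1), 6 group means, trend and robust moderation, and the 17840 genes whose TPM averaged 1 or more. That filter kept all 10 members. Genes were called at a Benjamini-Hochberg adjusted p below 0.05. The scale understates changes of low genes. The code was tested on simulated data. The series describes separate mice, and groups of 2 or 3 limit the precision.

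The members and gene lists were chosen with earlier results of these data known. Beside the members, the text names the 6 most abundant of 42 further plexus genes, those of them that limma called, and the 10 genes nearest by r; F5, Ace and Stra6 values were picked from these after they were seen. Coordinates match GENCODE M21 for 9 of 10 members, and for Ttr the file's own are given. Promoters are from RefSeq. The alternatives tried were no scaling, quantile normalisation, another pseudocount, other filters, the 2 groups fitted alone, a replicate block and leaving out each library. Short-RNA tables were not used here.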

Additional observations from a re-analysis of the deposited data

Results flagged for a closer look

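For 5 genes every APP mouse was below every WT mouse at 6 months and above every WT mouse at 12 months, on the scaled values, as for 0.617% of all genes. The difference between the 12-month and the 6-month genotype change on the log2 scale was 3.29 for Ttr, 2.91 for Folr1, 2.29 for Kcne2, 1.79 for Enpp2 and 1.70 for Slc4a5. The test of that difference, chosen after seeing the data, did not pass for any of them, with limma adjusted p of 0.330 to 0.450. On TPM as deposited the 6-month groups overlapped for all 5. The 5 genes varied together between libraries, so they are not independent cases. Without APP 6-month replicate 2 the 6-month change of Ttr was -0.83, and without WT 12-month replicate 1 its 12-month change was 0.46.

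In HT-22 cells Folr1 was listed at 0 in 3 of 4 libraries of each scramble group. The remaining library stood far from these, at 0.406 TPM with Aβ42 and at 0.350 TPM with the reverse peptide. Since the other 3 values are all listed at 0, any value above 0 would stand apart in this way, whatever its size.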

How the results depend on the processing

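No member was called in any of the 7 contrasts under any alternative that gives it (the 2 groups fitted alone give 5 of the 7), the replicate block and each left-out library included, and the smallest limma adjusted p was 0.0800 (Folr1 at 6 months without APP 6-month replicate 1). Of 1412 member values, 1365 kept their direction and side of the threshold and 47 changed sign. The count of members lower without overlap in APP at 6 months went from 6 to 0 on TPM as deposited. On those values Kl at 6 months was 0.018, and the averages over ages were 0.12 for Kl, 0.18 for Clic6 and 0.069 for Enpp2. With a pseudocount of 0.1 the average for Otx2 was -0.029. Leaving out 1 library, log2 changes that changed sign ranged at 3 months from -0.63 to 0.37 (Clic6), -0.62 to 0.24 (Enpp2), -0.82 to 0.25 (Folr1), -0.34 to 0.78 (Kcne2), -0.69 to 0.17 (Otx2) and -1.03 to 0.0061 (Ttr). At 6 months Otx2 ranged from -1.12 to 0.041. Averages over ages ranged from -0.18 to 0.20 (Clic6), -0.32 to 0.059 (Enpp2), -0.029 to 0.40 (Kcne2), -0.26 to 0.064 (Kl), -0.14 to 0.28 (Otx2) and -0.32 to 0.016 (Slc4a5). For APP at 12 against 3 months they ranged from -0.056 to 0.64 (Cldn2), -0.015 to 0.77 (Enpp2), -0.066 to 0.98 (Folr1) and -0.019 to 0.73 (Otx2). The cause of these changes was not tested. Counts of all genes called moved by over 1.5 times in these cases. Leaving out 1 library, they ranged from 8 (without APP 3-month replicate 1) to 371 (without APP 3-month replicate 3) at 3 months, 63 (APP 6-month replicate 3) to 482 (APP 3-month replicate 1) at 6 months, and 25 (APP 12-month replicate 1) to 106 at 12 months. They ranged from 10 (WT 12-month replicate 2) to 135 (APP 3-month replicate 3) on average, 16 (WT 3-month replicate 2) to 208 (APP 3-month replicate 3) for the interaction, 144 (APP 12-month replicate 3) to 758 for APP ageing, and 8 to 22 (WT 3-month replicate 1) for WT ageing. On TPM as deposited, 255 at 6 months became 10339, 39 on average over ages 1353, 80 for the interaction 5910, 596 for APP at 12 against 3 months 286, and 11 for WT 21. The share of calls that were lower went from 72.9% to 0.696% at 6 months, 58.5% to 88.7% at 3 months, 46.2% to 2.00% on average, 45.5% to 81.0% for WT ageing and 44.5% to 28.3% for APP ageing. With the 2 groups fitted alone the counts were 4 at 3 months (53 before), 38 at 6 months and 112 for APP ageing. With no filter they were 35, 101 and 24 (3 months, 6 months, WT ageing), 25 on average and 46 for the interaction. With a mean TPM of at least 5 they were 385 at 6 months, 50 at 12 months (81 before) and 158 for the interaction, with quantile normalisation 134 for the interaction, and with the block 14 on average and 131 for the interaction. The replicate numbers did not pair the mice: the correlation of same-numbered mice had a median of -0.0073 over 40 pairs, 3 of them above 0.1, and the block left 0 members called. Depth limits Aqp1, Slc4a5, Cldn2, Clic6, Kcne2, Otx2 and Folr1, listed at 0, in the lowest library. It also limits Cldn2, Slc4a5, Clic6 and Otx2 in WT 12-month replicate 1, with a read depth of 0.3135 to 0.4992. A mean TPM of at least 5 left 7 members to test.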
